A study of Mus musculus with 6 samples.

Results

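Of the 12894 genes in a table of newborn mouse epidermis, 56 belong to the Wnt, Hedgehog, Notch and BMP signalling families described here. They were chosen by symbol: any symbol made of Wnt, Fzd, Dkk, Sfrp, Axin, Nkd, Lef, Notch, Jag, Dll, Hes, Hey, Bmp, Smad, Ptch or Gli followed directly by a digit, together with Tcf7, Tcf7l1, Tcf7l2, Lrp5, Lrp6, Smo, Sufu, Bmpr1a and Bmpr2. No measured value entered that rule, but it and the further gene lists below were chosen with earlier results of these data known. The annotation holds 93 mouse genes that meet it. The other 37, among them Bmp4, Dkk1, Dll4, Fzd4, Hey1, Hes5, Smad6 and Wnt5a, are not analysed here. Among the 56 members are 29 Wnt, 7 Hedgehog, 7 Notch and 13 BMP genes, and all 56 passed the filter on low values. The symbol rule also takes in genes outside BMP signalling proper. These are Bmp1, a secreted protease that processes procollagen, and Bmp2k, a kinase named for its induction by a BMP. Smad2 and Smad3 of the TGF-beta branch are counted with the BMP genes too.

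The study asked how the epidermal transcriptome differs when Hnrnpu, which encodes a nuclear RNA-binding protein, is targeted. Bulk RNA sequencing was done on epidermis peeled from the dermis of C57BL/6 pups at postnatal day 0, in 3 control libraries and 3 libraries labelled knockout. By the genotype labels, control 1 was wild type, controls 2 and 3 were "Heterogenous", a word left here as spelled, and the 3 others were Hnrnpu knockouts made with loxP sites and Cre. Which promoter drives Cre, and whether the controls carried Cre or loxP sites, is not given in the sources used here. Each library has its own number in its title, but nothing states that they are separate animals, so p-values measure the spread between these libraries.

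RNA of the gene named in the labels was not detectably lower. Hnrnpu was at 1450.3, 1318 and 1160 normalized counts in controls 1 to 3 and at 1565, 1342 and 1036 in the libraries labelled knockout 1 to 3, a log2 difference of −0.01 ± 0.20 (SE, n = 3 per group; limma adjusted p = 0.976) and a 95% interval of 72.5 to 136% of control. Its RNA therefore does not check the labels, and the group is called "labelled knockout" throughout. Libraries held an estimated 6458242 to 9118492 assigned reads, with the fewest in knockout 2. Xist, the RNA that coats the inactive X chromosome, was at most 3.27 in the controls and in knockout 1 but at 5656 and 4758 in knockouts 2 and 3. The counts over all members were therefore also made with knockout 1 alone. Keratins of the suprabasal layers were abundant in all 6 libraries, with Krt10 at 159412 to 291291, as in epidermis. Bulk values cannot tell fewer cells of a type from less RNA per cell.

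These pathways carry signals between neighbouring skin cells. Wnt ligands bind Frizzled receptors with the co-receptors Lrp5 and Lrp6, which spares beta-catenin from the Axin complex, so that it can act with TCF/LEF factors on target genes such as Axin2. Hedgehog ligands release Smo from inhibition by Patched, and Gli factors then act on targets that include Ptch1 and Gli1. Notch receptors are cut after binding a Jagged or Delta ligand on an adjacent cell and act with RBPJ on Hes and Hey genes, while BMP ligands act through paired kinase receptors and SMAD proteins. In skin, Wnt, Hedgehog and BMP signals pattern hair follicles, and Notch is known for its role as basal keratinocytes leave the basal layer.

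Response elements of the 4 pathways were searched in the promoters of the members, which are rich in G and C. RefSeq promoter sequences (build GRCm38.p6, the 250 bases before the gene start) matched 35 of the 56 members. Their median GC content was 68.4%, against 52.4% over all 27025 genes with a promoter in that reference. That background, also used for the motifs, was not limited to genes of the table. The SMAD1/5 element GGCGCC was in the promoter of 13 of 35 members (37.1%), against 10.8% of all genes with a promoter. It is a GC-only sequence and the members' promoters are GC-rich, and the part of base content in that share was not tested. The RBPJ element TGGGAA was in 6 of 35 (17.1%; 24.1% of all genes) and the GLI element CCACCCA in 1 of 35, Fzd7 (2.86%; 9.29%). The TCF/LEF element, searched as CTTTGAA or CTTTGAT, was in 0 of 35 (8.63% of all genes). All motifs were searched on both strands. TTCCCA is the minus-strand form of the RBPJ element, GGCGCC reads the same on both strands, and no matches overlapped in the promoters shown. A match is a description of these letters in this window and says nothing of binding.

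The promoters of 5 genes are shown because these genes carry the differences described below: Wnt4 (chr4:137277385-137277634, plus strand), Axin2 (chr11:108920099-108920348, plus strand), Jag1 (chr2:137116521-137116770, minus strand) and the BMP receptor genes Bmpr1a (chr14:34502547-34502796, minus strand) and Bmpr2 (chr1:59764029-59764278, plus strand), all in GRCm38.p6. Each is written 5′ to 3′ on the gene's strand as given in that reference, and capitals mark motif matches. Bases after the start were found in an annotated transcript of the gene for 30 of the 43 member promoters. Strand and start of the others rest on the reference alone.
Wnt4: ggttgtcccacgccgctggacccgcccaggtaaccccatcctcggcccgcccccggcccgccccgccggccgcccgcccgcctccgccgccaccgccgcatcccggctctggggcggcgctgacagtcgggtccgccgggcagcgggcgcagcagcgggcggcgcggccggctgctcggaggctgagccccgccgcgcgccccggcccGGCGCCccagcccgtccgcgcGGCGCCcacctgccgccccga
Axin2: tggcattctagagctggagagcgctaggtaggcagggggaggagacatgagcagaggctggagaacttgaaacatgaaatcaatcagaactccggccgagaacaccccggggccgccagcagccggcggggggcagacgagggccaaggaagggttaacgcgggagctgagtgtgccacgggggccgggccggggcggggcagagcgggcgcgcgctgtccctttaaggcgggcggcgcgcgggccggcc
Jag1: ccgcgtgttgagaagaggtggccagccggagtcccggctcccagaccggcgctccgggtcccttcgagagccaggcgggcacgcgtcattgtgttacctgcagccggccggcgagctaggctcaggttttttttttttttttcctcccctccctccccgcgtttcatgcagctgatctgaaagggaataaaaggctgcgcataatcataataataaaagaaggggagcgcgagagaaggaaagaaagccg
Bmpr1a: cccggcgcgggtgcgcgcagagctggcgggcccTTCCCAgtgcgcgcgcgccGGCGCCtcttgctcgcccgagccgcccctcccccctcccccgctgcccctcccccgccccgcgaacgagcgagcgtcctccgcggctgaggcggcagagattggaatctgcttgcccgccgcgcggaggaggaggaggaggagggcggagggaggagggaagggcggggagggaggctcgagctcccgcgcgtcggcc
Bmpr2: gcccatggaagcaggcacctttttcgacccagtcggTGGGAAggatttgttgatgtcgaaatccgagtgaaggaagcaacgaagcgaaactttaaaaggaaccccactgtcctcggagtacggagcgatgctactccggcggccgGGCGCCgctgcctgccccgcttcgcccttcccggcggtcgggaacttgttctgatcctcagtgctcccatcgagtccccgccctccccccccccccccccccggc
In Wnt4 the capitals are 2 SMAD1/5 elements, 42 and 21 bases before the start. Bmpr1a and Bmpr2 each hold 1 RBPJ and 1 SMAD1/5 element, while Axin2 and Jag1 hold none of the 4 motifs in this window.

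Across the 4 families, falls outnumbered rises. Of the 56 members, 19 were lower in the libraries labelled knockout (33.9%; 15.9% of all tested genes were lower) and 6 were higher (10.7%; 17.7% of all genes), by limma with adjusted p at most 0.05. In all, 25 members passed (44.6%), against 33.6% of the 12872 genes tested. The groups did not overlap for 26 members (46.4%), against 50.8% of all genes: 20 had every labelled knockout below every control (25.0% of all genes) and 6 had every one above (25.8%). The median log2 difference was −0.47 over the members and −0.02 over all tested genes. With knockout 1 alone, the labelled knockout with low Xist, the members' median was 0.016, and 8 members were lower (9.48% of all genes) and 2 higher (9.83%). Wnt genes accounted for 13 of the 19 falls and 3 of the 6 rises, which were 44.8% and 10.3% of the 29 Wnt members. Hedgehog genes accounted for 3 falls, BMP genes for 3 falls and 2 rises, and Notch genes for 1 rise.

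**Figure D1:**
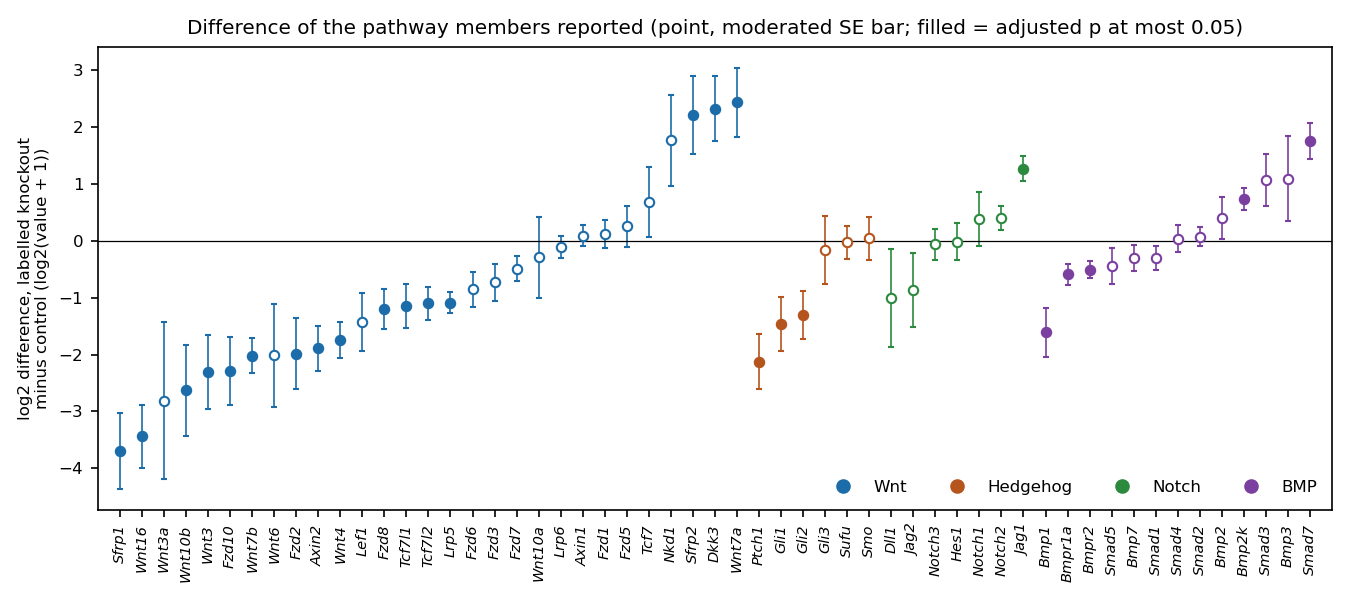
Log2 difference (labelled knockout minus control, on the log2(value + 1) scale) of each member reported, grouped and coloured by family and sorted within it. Points are fitted differences, bars the moderated SE, and filled points passed the adjusted threshold of 0.05: they run from −3.69 for Sfrp1 to 2.43 for Wnt7a.

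Of the 9 measured Wnt ligands 5 fell (55.6%, against 15.9% of all tested genes), 1 rose (11.1%, against 17.7%) and 3 did not pass. Their median log2 difference was −2.02. Wnt7b, which signals through beta-catenin in skin, was at 1779.7, 1703 and 1661 normalized counts in the controls and at 468, 252 and 634 in the labelled knockouts. The controls lay close together and far above all 3 labelled knockouts, a log2 difference of −2.02 ± 0.31 (adjusted p = 0.00221), or 24.6% of the control level (95% interval 15.2 to 40.0). Wnt4 was at 1199.8, 1218 and 792 in controls and 432, 362 and 195 in labelled knockouts, a fall of −1.74 ± 0.31 (adjusted p = 0.00457). Wnt16, a ligand with few reads here, went from 168, 130.2 and 48.2 to 11.2, 11.9 and 4.44, the deepest fall among the ligands that passed (−3.44 ± 0.55, adjusted p = 0.00278). These 3 ligands passed in each of the 15 alternative settings.

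Wnt3 and Wnt10b, canonical ligands of the epidermis and hair placode, fell too, with a wider spread. Wnt3 was at 354, 222 and 247 in controls and at 89.7, 15.3 and 109 in labelled knockouts (log2 −2.31 ± 0.64, adjusted p = 0.0259). Wnt10b was at 371, 193 and 211 in controls and at 117, 8.51 and 56.6 (−2.63 ± 0.79, adjusted p = 0.0339). In both genes knockout 2 was far below the other labelled knockouts, and without it the differences were −1.44 for Wnt3 and −1.59 for Wnt10b. Wnt3 did not pass without control 1, 2 or 3 (adjusted p = 0.0837, 0.0586 and 0.0645), and Wnt10b did not either (0.105, 0.0705 and 0.0745).

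Wnt7a was the ligand that rose. It was at 64.2, 22.1 and 15.5 in controls and at 223, 239.9 and 71.0 in labelled knockouts (log2 2.43 ± 0.60, adjusted p = 0.0169), with the lowest labelled knockout just above the highest control. It did not pass without control 2 or 3 or knockout 1 or 2 (adjusted p = 0.0585, 0.0581, 0.0549 and 0.0571), while the log2 difference stayed at 2.02 or more. Wnt7a therefore moved opposite to Wnt7b, its nearest relative in the family.

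The other 3 ligands did not pass. Wnt6 was at 152, 71.7 and 66.2 in controls and 70.1, 3.40 and 35.5 in labelled knockouts (log2 −2.01 ± 0.91, adjusted p = 0.117), and its groups overlapped through knockout 1. Wnt3a was at 52.1, 15.9 and 12.3 against 33.6 in knockout 1 and was listed at 0 in knockouts 2 and 3 (adjusted p = 0.146). Both passed when the adjacent title numbers were used as a replicate block (adjusted p = 0.0283 for Wnt6 and 0.0338 for Wnt3a) and without knockout 1 (0.0436 and 0.0144). Wnt10a, a ligand of ectodermal appendages, was at 143, 99.2 and 50.7 against 251.4, 32.3 and 47.7 (log2 −0.29 ± 0.71, adjusted p = 0.774). Its highest and lowest values were both in labelled knockouts, so neither group stood above the other.

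**Figure D2:**
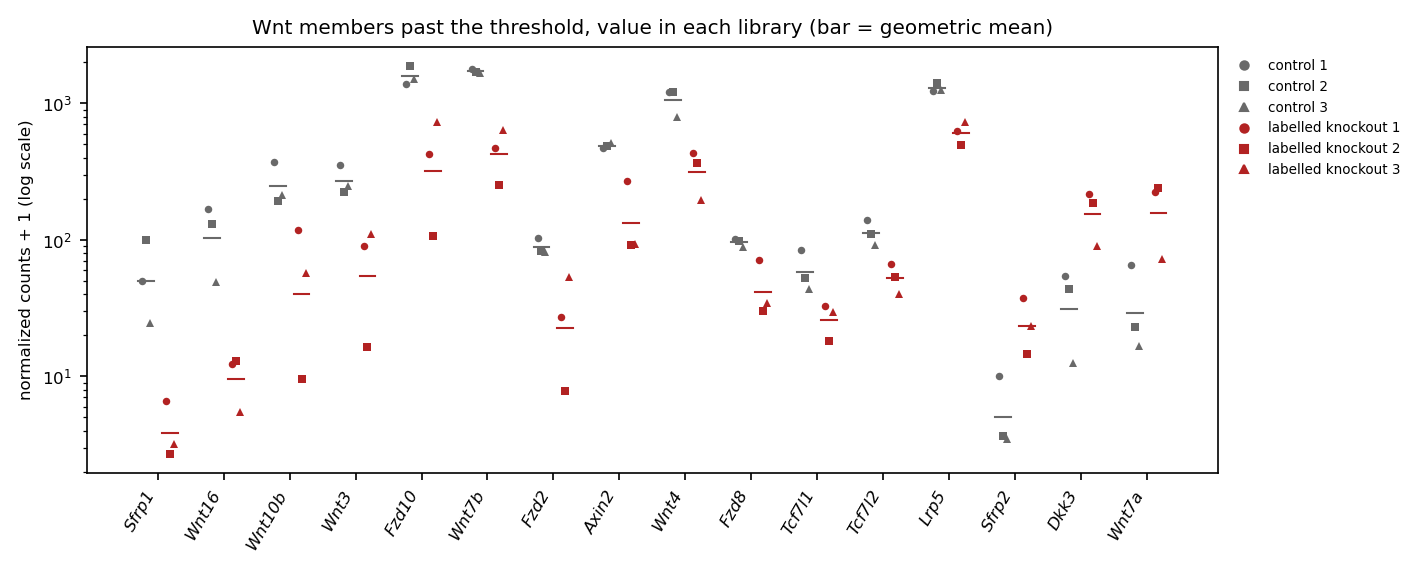
Normalized counts plus 1, on a log axis, of the 16 Wnt members that passed, in each control (grey) and each library labelled knockout (red); bars are geometric means of 3 libraries. Wnt7b controls sit at 1661 to 1779.7, above all labelled knockouts, and the lowest red point of Wnt3, Wnt10b, Fzd10 and Fzd2 is knockout 2.

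Because longer transcripts collect more reads, levels of different genes were compared per kb of exon. Summed over the 9 ligands, the controls held 1079, 882 and 741 normalized counts per kb and the labelled knockouts 481, 238 and 287. The groups did not overlap. Wnt7b and Wnt4 made up most of the ligand sum in controls, with mean shares of 39.6% and 28.3%. In labelled knockouts the mean shares were 28.9% for Wnt7b and 24.6% for Wnt4. Wnt7a took 1.88, 0.791 and 0.660% of the sum in controls and 14.6, 31.7 and 7.80% in labelled knockouts, so its share was higher in every labelled knockout. Shares depend on one another, and no test was made of them.

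On the receiving side, 4 of 10 Wnt receptors and co-receptors fell (40%) and 0 rose, by limma. Of all tested genes, 15.9% fell and 17.7% rose. Lrp5, a co-receptor of canonical signalling, was at 1229, 1411 and 1241 in controls and at 625, 495 and 723 in labelled knockouts (log2 −1.09 ± 0.19, adjusted p = 0.00391), a tight fall to 47.1% of control that passed in all 15 alternatives. Its paralog Lrp6 was at 735, 743 and 850.1 against 784, 577 and 815 (−0.11 ± 0.19, adjusted p = 0.677), with overlapping groups. The 95% interval for Lrp6 ran from 68.5 to 125% of control and that for Lrp5 from 34.9 to 63.5%. The difference between the co-receptors was not tested itself.

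Fzd10 was the Frizzled gene with the highest level per kb in controls. It was at 1383, 1864 and 1512 normalized counts in controls and at 425, 105 and 732 in labelled knockouts (log2 −2.29 ± 0.59, adjusted p = 0.0197). Knockout 2 was again the lowest, and without it the difference was −1.49 (adjusted p = 0.00704). Fzd10 did not pass without control 2 (adjusted p = 0.0649) or control 3 (0.0535). Of the Frizzled sum per kb, Fzd10 made up 61.7% on average in controls and 34.8% in labelled knockouts, as the sum itself went from 766, 866 and 737 to 369, 222 and 414 per kb.

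Fzd2 and Fzd8 also fell. Fzd2 was at 102, 82.4 and 80.1 in controls and 26.2, 6.81 and 52.1 in labelled knockouts (log2 −1.98 ± 0.62, adjusted p = 0.0382), or −1.22 without knockout 2. Fzd8 was at 101, 96.5 and 88.3 against 70.1, 28.9 and 33.3 (−1.20 ± 0.35, adjusted p = 0.0308). Neither call was firm. Fzd2 did not pass without control 1, 2 or 3 (adjusted p = 0.108, 0.0928 and 0.0877) or without knockout 1 (0.0643). Fzd8 did not pass without control 1, 2 or 3 (0.0940, 0.0914 and 0.0752) or without knockout 2 or 3 (0.0811 and 0.0652).

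Of the other Frizzled genes, Fzd6, known for its role in hair orientation, was at 834, 544 and 483 in controls and 498, 296 and 249 in labelled knockouts (log2 −0.86 ± 0.30, adjusted p = 0.0597). It passed with the replicate block (0.00365), with equal library totals (0.0338), with quantile normalization (0.0431) and without knockout 1 (0.0212). Fzd3, which acts with Fzd6 in planar polarity, was at 341, 215 and 279 against 228, 100.4 and 194 (−0.73 ± 0.33, adjusted p = 0.116; 0.0176 with the block). Fzd7 was at 189, 290.4 and 209 against 170.1, 158 and 153 (−0.49 ± 0.22, adjusted p = 0.114; 0.0326 with equal library totals), with every labelled knockout below every control. Fzd1 (log2 0.12 ± 0.25) and Fzd5 (0.25 ± 0.36) did not pass, with adjusted p of 0.735 and 0.606.

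**Figure D3:**
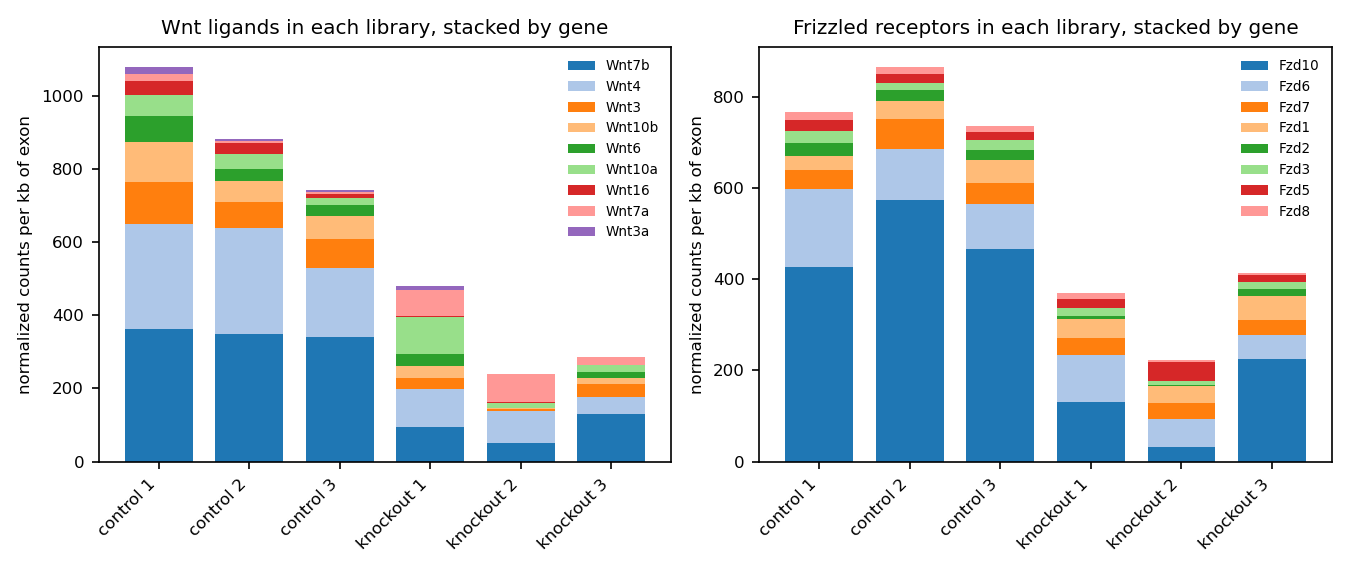
Normalized counts per kb of exon of the 9 Wnt ligands (left) and 8 Frizzled receptors (right), stacked by gene in each control and each library labelled knockout, on linear axes from 0. Ligand sums are 741 to 1079 in controls and 238 to 481 in labelled knockouts, and the Wnt7a share, pink in the left panel, is higher in every labelled knockout.

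Among the secreted and intracellular inhibitors of Wnt signalling the members split, with 2 lower, 2 higher and 2 not passing of 6. Each direction thus held 33.3%, against 15.9% lower and 17.7% higher over all tested genes. Axin2, a feedback inhibitor that is itself a Wnt target, was at 473, 487 and 508 in controls and at 270.1, 90.2 and 92.0 in labelled knockouts (log2 −1.89 ± 0.39, adjusted p = 0.00808). The controls were nearly equal, and knockout 1 lay between them and the other 2 labelled knockouts. It passed in all 15 alternatives. Its paralog Axin1, a constitutive scaffold of the beta-catenin destruction complex, was at 402, 388 and 380.1 against 476, 449 and 335 (0.09 ± 0.19, adjusted p = 0.736). Sfrp1, a secreted Wnt-binding protein, fell from 49.1, 99.2 and 23.7 to 5.61, 1.70 and 2.22 (−3.69 ± 0.67, adjusted p = 0.00461), the largest fall of the 56 members. The value in knockout 2 corresponds to about 1 read, so the size of this fall is poorly bounded.

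Sfrp2 and Dkk3 rose. Sfrp2, a relative of Sfrp1, was at 9.06, 2.66 and 2.45 in controls and 36.4, 13.6 and 22.2 in labelled knockouts (log2 2.21 ± 0.69, adjusted p = 0.0377). Dkk3, a divergent member of the Dickkopf family, was at 53.6, 42.5 and 11.4 against 216.8, 185 and 89.8 (2.32 ± 0.57, adjusted p = 0.0162). Every labelled knockout was above every control for both genes. Sfrp2 in controls 2 and 3 corresponds to about 3 reads, so the size of its rise is poorly bounded. Sfrp2 did not pass without control 2 or 3 (adjusted p = 0.103 and 0.0994), without knockout 1 or 3 (0.117 and 0.0789) and with equal library totals (0.0742). Dkk3 did not pass without knockout 1 (0.0530) or knockout 2 (0.0508), and was at 1.66 without control 3. Nkd1, an inhibitor acting on Dishevelled, was at 22.7, 11.5 and 2.45 against 79.4, 20.4 and 22.2 (1.76 ± 0.80, adjusted p = 0.121; 0.0260 with the block). Sfrp2 is also expressed by dermal fibroblasts. Of the 5 fibroblast markers in the table, 3 passed as higher (Col1a1, Col1a2 and Col3a1) and 0 as lower. Dcn was at 366, 160 and 87.5 in controls and 215, 61.2 and 80.9 in labelled knockouts. It pointed down without passing (log2 −0.75 ± 0.58, limma adjusted p = 0.341), and Col5a1 pointed up without passing (1.08 ± 0.49, adjusted p = 0.119). The marker sum was 168 to 503 in controls and 579.9 to 744 in labelled knockouts. Fibroblast markers Lum, Pdgfra and Twist2 have no matching symbol in the table. The part of fibroblast RNA in the Sfrp2 and Dkk3 values was not tested.

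Of the 4 TCF/LEF factors, which carry the Wnt signal to DNA, 2 fell (50%, against 15.9% of all tested genes). Tcf7l2 was at 138, 109.8 and 89.9 in controls and 65.4, 52.7 and 38.8 in labelled knockouts (log2 −1.10 ± 0.29, adjusted p = 0.0204). Tcf7l1, known as a repressor in skin progenitors, was at 83.8, 51.4 and 42.5 against 31.8, 17.0 and 28.8 (−1.15 ± 0.39, adjusted p = 0.0487), at the edge of the threshold. Tcf7l1 lost its call without any of the 6 libraries, with adjusted p of 0.177, 0.107 and 0.0663 without controls 1 to 3 and 0.0547, 0.116 and 0.0575 without knockouts 1 to 3. Tcf7l2 lost its call without control 1 (0.0847) or control 2 (0.0667). Lef1, a marker of hair placodes and matrix, was at 349, 100.4 and 129.8 against 106, 41.4 and 51.6 (−1.43 ± 0.50, adjusted p = 0.0579). It passed with the replicate block (0.00179), with equal library totals (0.0451) and without knockout 1 (0.0361). Tcf7 was at 55.1, 34.5 and 8.99 against 41.1, 57.8 and 32.2 (0.68 ± 0.61, adjusted p = 0.408).

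Beyond the symbol rule, a list of 55 further Wnt pathway genes was counted, of which 45 were in the table. Of these, 16 fell (35.6%; 15.9% of all tested genes), 6 rose (13.3%; 17.7%) and 23 did not pass, with a median log2 difference of −0.50. Ror1, a Wnt5a receptor, was at 331, 169 and 248 in controls and at 25.2, 15.3 and 12.2 in labelled knockouts (−3.76 ± 0.36, adjusted p = 0.000281), with no labelled knockout near the control range. Ctnnbip1, an inhibitor of beta-catenin binding to TCF, was at 1746, 1753 and 1877 against 584, 624 and 777 (−1.45 ± 0.17, adjusted p = 0.000737). The beta-catenin co-activators Bcl9 (−1.31 ± 0.25, adjusted p = 0.00608) and Bcl9l (−1.60 ± 0.34, adjusted p = 0.00854) fell as well. Daam1, a formin of the planar polarity branch, rose by 1.18 ± 0.22 (adjusted p = 0.00567). Wif1, a secreted Wnt inhibitor, was at 0.755, 0.885 and 1.63 in controls, about 1 or 2 reads each, and at 66.4, 17.0 and 25.5 in labelled knockouts (adjusted p = 0.00558), and no fold is given. Among the named genes of this list, co-activators and an inhibitor of beta-catenin fell, and a secreted inhibitor and a planar polarity gene rose.

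Of the 7 Hedgehog members 3 fell (42.9%, against 15.9% of all tested genes) and 0 rose (against 17.7%), by limma. Ptch1, the ligand receptor and a target of its own pathway, was at 1592, 685 and 737 in controls and at 280.4, 100.4 and 342 in labelled knockouts (log2 −2.12 ± 0.48, adjusted p = 0.0119), or 23.0% of control (95% interval 10.7 to 49.3). Gli1, also a target, was at 217.5, 79.7 and 89.1 against 62.6, 23.8 and 46.6 (−1.47 ± 0.47, adjusted p = 0.0424). Gli2, the main activator, was at 317, 213 and 224 against 134, 47.6 and 152 (−1.31 ± 0.42, adjusted p = 0.0422). In all 3 genes control 1 was the highest library and knockout 2 the lowest, and the groups did not overlap. Ptch1 passed whichever library was left out. Gli1 did not pass without control 1, 2 or 3 (adjusted p = 0.137, 0.0543 and 0.0677) or without knockout 2 or 3 (0.115 and 0.0572). Gli2 did not pass without control 1, 2 or 3 (0.130, 0.0810 and 0.0871), and its difference was −0.79 without knockout 2 (0.0490).

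Smo, Sufu and Gli3 did not pass. Smo, the signal transducer, was at 283, 282 and 125 against 327, 170.1 and 195 (0.04 ± 0.37, adjusted p = 0.942). Sufu, an inhibitor of Gli factors, was at 181, 152 and 307 against 233, 159.9 and 215 (−0.03 ± 0.29, adjusted p = 0.952). Gli3, which acts mostly as a repressor, was at 240.1, 121 and 59.7 against 246, 76.6 and 66.5 (−0.16 ± 0.60, adjusted p = 0.856). Values of these 3 genes overlapped between the groups. The ligand Shh was at 45.3, 4.43 and 10.6 in controls and at 47.7, 3.40 and 8.87 in labelled knockouts, so control 1 and knockout 1 both stood far above the other libraries.

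Of 31 further Hedgehog genes listed, 20 were in the table, and of these 3 fell, 2 rose and 15 did not pass (median log2 −0.05). The shares that fell (15%) and rose (10%) were close to or below those of all tested genes (15.9 and 17.7%). Gas1, a co-receptor, went from 542, 413 and 569 to 91.2, 37.4 and 53.9 (−3.12 ± 0.32, adjusted p = 0.000425), with every labelled knockout far below the controls. Cdon, another co-receptor, was at 480.2, 173 and 143 against 72.9, 13.6 and 54.3 (−2.55 ± 0.65, adjusted p = 0.0183; 0.0638 without control 1). Disp1, which releases the ligand from its source cell, was at 178, 60.2 and 56.4 against 37.4, 27.2 and 17.7 (−1.65 ± 0.49, adjusted p = 0.0318). The Disp1 call was lost without control 1 (0.0983), control 2 (0.0507), knockout 2 (0.0672) or knockout 3 (0.0705). Spop, an adaptor for the breakdown of Gli2 and Gli3, rose by 1.01 ± 0.24 (adjusted p = 0.0141; 0.0520 without control 1). Disp3 was listed at 0, 0.885 and 0 in controls and at 33.6, 20.4 and 11.1 in labelled knockouts (adjusted p = 0.0114; 0.0548 without knockout 1). Iqce, a ciliary protein, was at 46.8, 36.3 and 56.4 against 25.2, 11.9 and 27.7 and did not pass (−1.13 ± 0.41, adjusted p = 0.0632). It passed with the replicate block (0.0264), with equal library totals (0.0472) and without knockout 3 (0.0485).

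Jag1 was the 1 Notch member of 7 that passed (14.3%, against 33.6% of all tested genes). This ligand was at 536, 426 and 386 in controls and at 1307, 1109 and 841 in labelled knockouts (log2 1.26 ± 0.22, adjusted p = 0.00390), 239.8% of control (95% interval 169 to 339), and it passed in all 15 alternatives. Jag2, the other Jagged ligand, was at 690.1, 299 and 194 against 533, 104 and 119 (−0.86 ± 0.65, adjusted p = 0.327). Dll1, a Delta ligand, was at 219.7, 174 and 32.7 against 171, 39.1 and 22.2 (−1.01 ± 0.86, adjusted p = 0.385). Jag2 passed with the replicate block (0.0219) and without knockout 1 (0.0444). Per kb of exon, Jag1 made up 37.8, 46.5 and 65.1% of the 3 measured ligands in controls and 65.7, 88.7 and 86.6% in labelled knockouts. The lowest of these shares among labelled knockouts was therefore just above the highest among controls.

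None of the 3 Notch receptors passed. Notch2 was the receptor with the highest level per kb, at 50.9% of the receptor sum in controls and 55.2% in labelled knockouts on average. It was at 4205, 4863 and 5325 normalized counts in controls and 6553, 7569 and 5029.5 in labelled knockouts (log2 0.40 ± 0.20, adjusted p = 0.160). Notch1 was at 2019.8, 1407 and 2033 against 3729, 963 and 3582 (0.38 ± 0.48, adjusted p = 0.556). Its labelled knockouts spanned the widest range, with knockouts 1 and 3 above every control and knockout 2 below every control. Without knockout 2, Notch1 was higher by 1.03 (adjusted p = 0.0116). Notch3 was at 1941, 2001 and 3619 against 1995, 2229 and 2755 (−0.07 ± 0.27, adjusted p = 0.863). Hes1, a direct Notch target, was at 376, 336 and 189 against 411, 206 and 274 (−0.01 ± 0.33, adjusted p = 0.977), with a 95% interval of 58.6 to 167% of control.

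Among 40 further Notch genes, 34 were in the table, of which 10 fell (29.4%; 15.9% of all tested genes), 1 rose (2.94%; 17.7%) and 23 did not pass (median log2 −0.30). Among the genes that moved were 2 ubiquitin ligases that act on Notch ligands, in opposite directions. Mib1 was at 1564, 1671 and 1297 in controls and 866, 686 and 787 in labelled knockouts (−0.95 ± 0.18, adjusted p = 0.00531). Mib2 was at 65.7, 60.2 and 105 against 329.9, 271 and 338 (2.04 ± 0.26, adjusted p = 0.000974). Dtx4, a Deltex ubiquitin ligase, fell from 95.1, 91.2 and 86.6 to 15.9, 13.6 and 12.2 (−2.63 ± 0.29, adjusted p = 0.000583), with little spread in either group. Aph1b, a subunit of gamma-secretase, fell by 1.98 ± 0.38 on the log2 scale (adjusted p = 0.00573). Numbl, a relative of the Notch inhibitor Numb, fell by 1.12 ± 0.22 (adjusted p = 0.00598), and Pofut1, which adds O-fucose to Notch, fell by 0.91 ± 0.19 (adjusted p = 0.00769).

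**Figure D4:**
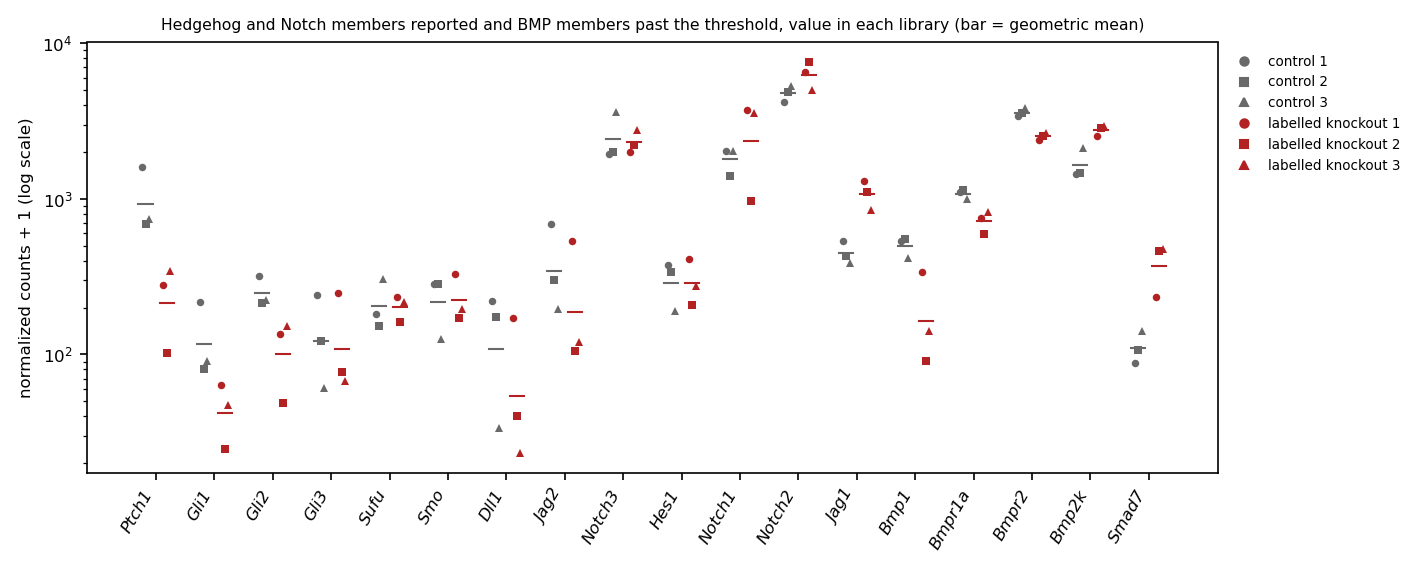
Normalized counts plus 1, on a log axis, of the Hedgehog and Notch members reported and of the BMP members that passed, in each control (grey) and each library labelled knockout (red); bars are geometric means of 3 libraries. Ptch1, Gli1 and Gli2 have their highest point in control 1 and their lowest in knockout 2, and the 3 Jag1 values of labelled knockouts (841 to 1307) lie above the controls (386 to 536).

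In the BMP family 3 of 13 members fell (23.1%; 15.9% of all tested genes), 2 rose (15.4%; 17.7%) and 8 did not pass, with a median log2 difference of 0.03. These counts are near the background. Both BMP receptor genes of the rule were lower. Bmpr1a, a type I receptor, was at 1107, 1131 and 999 in controls and 748, 594 and 822 in labelled knockouts (−0.59 ± 0.18, adjusted p = 0.0356), or 66.4% of control. Bmpr2, the type II receptor, was at 3398, 3547 and 3826 against 2403, 2516 and 2645 (−0.51 ± 0.15, adjusted p = 0.0344), or 70.3% of control. Groups did not overlap for either gene, and the Bmpr2 values were close together within each group. Bmpr1a did not pass without control 1, 2 or 3 (adjusted p = 0.106, 0.118 and 0.0748) and without knockout 1 or 2 (0.0562 and 0.0731). Bmpr2 lost its call without control 1, 2 or 3 (0.0830, 0.109 and 0.129) and without knockout 1 (0.0679).

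Smad7, an inhibitory SMAD that acts on TGF-beta and BMP receptors, rose. It was at 86.8, 106 and 141 in controls and 235, 458 and 478 in labelled knockouts (log2 1.76 ± 0.32, adjusted p = 0.00458), 338% of control (95% interval 205 to 558), and passed whichever library was left out. The receptor-activated Smad1 (−0.30 ± 0.21, adjusted p = 0.293) and Smad5 (−0.45 ± 0.31, adjusted p = 0.293) of the BMP branch did not pass. Smad1 passed with equal library totals (0.0246). Smad2 (0.07 ± 0.17, adjusted p = 0.762) and the shared Smad4 (0.03 ± 0.23, adjusted p = 0.921) had intervals of 80.3 to 138% and 70.9 to 148% of control. Smad3 of the TGF-beta branch was at 211, 204 and 109 against 429.9, 587 and 171 (1.06 ± 0.45, adjusted p = 0.101), and passed with the replicate block (0.00578) and without knockout 3 (0.00889).

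None of the 3 measured BMP ligands passed. Bmp2 was at 553, 540.2 and 333 in controls and 994, 629 and 360.4 in labelled knockouts (log2 0.39 ± 0.37, adjusted p = 0.427). Bmp7 was at 551, 474 and 418 against 407, 291 and 491 (−0.30 ± 0.23, adjusted p = 0.333), and Bmp3, an atypical and inhibitory family member, at 21.1, 23.0 and 6.54 against 97.2, 15.3 and 23.3 (1.09 ± 0.74, adjusted p = 0.275). The protease gene Bmp1 was lower, at 537, 553 and 419 against 339, 90.2 and 141 (−1.61 ± 0.43, adjusted p = 0.0212). It did not pass without control 1 (0.0660) or control 2 (0.0692). The kinase gene Bmp2k was higher, at 1452, 1469 and 2128 against 2522, 2834 and 2942 (0.74 ± 0.20, adjusted p = 0.0224). This call was lost without control 1 (0.0867) or control 2 (0.0923), and the difference was 0.40 (0.135) with equal library totals and 0.36 (0.157) with quantile normalization.

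A list of 48 further genes of BMP, activin and TGF-beta signalling had 32 in the table. Of these, 6 rose, 5 fell and 21 did not pass (median log2 0.12). These shares, 18.8% higher and 15.6% lower, were near those of all tested genes (17.7 and 15.9%). Activin subunits were among the rises. Inhba was at 4.53, 10.6 and 7.36 in controls and at 86.9, 567 and 143 in labelled knockouts (4.57 ± 0.65, adjusted p = 0.00166), with the highest value in knockout 2, and without that library the difference was 3.79. Inhbb was at 13.6, 17.7 and 13.9 against 106, 247 and 51.0 (2.80 ± 0.53, adjusted p = 0.00531). The type I receptor Acvr1 was at 99.7, 71.7 and 63.8 against 276, 255 and 203 (1.64 ± 0.24, adjusted p = 0.00202), opposite in direction to Bmpr1a. Rgmb, a BMP co-receptor, fell from 1121, 621 and 1005 to 254, 139.5 and 162 (−2.30 ± 0.30, adjusted p = 0.00104), and its relative Rgma fell by 1.11 ± 0.25 (adjusted p = 0.0116). Smurf2, a ubiquitin ligase that acts with Smad7, fell by 1.21 ± 0.22 (adjusted p = 0.00422). Smurf1 of the same list rose by 1.37 ± 0.34 (limma adjusted p = 0.0159), the opposite direction.

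Over the 4 partner lists together, 34 of 131 genes fell (26.0%, against 15.9% of all tested genes) and 15 rose (11.5%, against 17.7%). With equal library totals 45 fell and 10 rose. That scaling moved the median log2 difference of all genes from −0.02 to −0.36, and all genes then split into 3065 lower and 1440 higher, against 2049 and 2279. Among the members, equal totals gave 23 lower (23.8% of all genes) and 4 higher (11.2%), and the replicate block 26 lower (22.0%) and 8 higher (22.9%).

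Certain libraries recurred at the extremes. Knockout 2 was the lowest of the 6 libraries for 26 of 56 members, among them 16 of 29 Wnt and 4 of 7 Hedgehog genes. Control 1 was the highest for 22. Matching counts over all tested genes were not made, so these are not traits particular to the members. Knockout 2 also stood apart over all tested genes. On their main axis of variation (72.7% of the variance) it was at 114, against 64.1 and 49.2 in knockouts 1 and 3 and −82.1 to −69.0 in controls. Basal keratinocyte markers also varied within the controls: Itga6 was at 2067, 1182 and 478 and Col17a1 at 3922, 2894 and 1048 in controls 1 to 3, and Itga6 was at 1084, 522 and 241.6 in knockouts 1 to 3. Of the 6 basal markers Krt14 rose (log2 3.21), Krt15 fell (−6.84) and 4 did not pass, and the basal sum was 14737 to 42310 in controls and 30009 to 123489 in labelled knockouts. Krt14 carried the higher sum. Without it the other 5 summed to 11529 to 32001 in controls and 8156 to 22246 in labelled knockouts, and the groups overlapped. Of the 11 hair follicle markers measured, 3 rose (Sox9, Trps1 and Krt75) and 1 fell (Krt79), with sums of 2449.8 to 3301 and 2662 to 5175. All 8 melanocyte markers rose, with sums of 478 to 711 and 3104 to 4978. Of 6 leukocyte markers 1 fell (Cd3e), with sums of 149 to 336 and 56.1 to 633. Vcan was the 1 dermal papilla marker in the table and Pecam1 the 1 endothelial marker, and neither passed, at 59.7 to 116 and 68.7 to 178 for Vcan and 2.66 to 5.72 and 6.54 to 59.5 for Pecam1. The part of these cell types in the member differences was not tested.

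All 25 members that passed kept their direction in each pair of adjacently numbered libraries and in all 15 alternative settings, but fewer kept their call. The groups did not overlap for any of the 25. Their direction in the pairs, with a library left out and with knockout 1 alone was therefore fixed in advance and is no sign of stability. Of the 25, 6 passed in every alternative (Axin2, Jag1, Lrp5, Wnt16, Wnt4 and Wnt7b), and 9 whichever library was left out (these 6 with Ptch1, Sfrp1 and Smad7). Without the mean-variance trend, Wnt3, Wnt10b, Fzd2, Gli1, Gli2, Bmpr1a and Bmpr2 lost their calls (adjusted p = 0.0517 to 0.0726). With knockout 1 as the only labelled knockout, log2 differences of the 25 ran from −3.08 for Wnt16 to 2.94 for Wnt7a. The single labelled knockout of that fit is assumed to vary as the controls do. The log2 difference there was −0.56 for Bmp1, −1.08 for Wnt10b and −0.44 for Fzd8, all closer to 0 than over 3 libraries, and 2.94 for Wnt7a, 2.82 for Dkk3 and 2.90 for Sfrp2, all farther from it. Not every fall shrank and not every rise grew. Bmpr2 was at −0.58 there against −0.51 over all libraries, Smad7 at 1.09 against 1.76 and Bmp2k at 0.61 against 0.74.

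**Figure D5:**
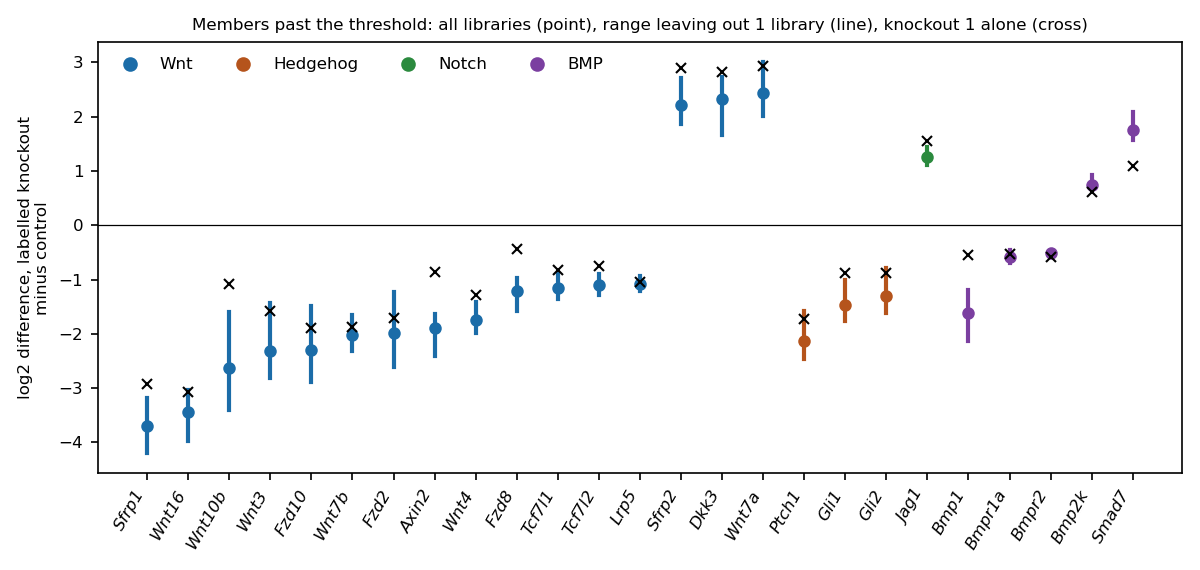
Log2 difference of the 25 members that passed: over all libraries (point), the range when 1 library at a time was left out (line) and with knockout 1 as the only labelled knockout (cross). No line or cross passes 0, which was fixed in advance because the groups of these members do not overlap. The crosses of Fzd8 (−0.44) and Bmp1 (−0.56) lie closer to 0 than their lines.

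Median gene span, from the first to the last annotated base, was 43.8 kb for the 19 members that fell, 39.1 kb for the 6 that rose and 42.7 kb for the 31 that did not pass, against 21.0 kb for all tested genes and 28.3 kb for all genes that fell. The members varied widely in span, with a lower quartile of 11.2 kb among those that fell.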

How the data were processed

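Epidermal RNA of 3 control and 3 labelled knockout libraries was measured by bulk RNA sequencing. The authors deposited a normalized count signal per gene. Per the submitters' processing notes, the build was mm39, and TopHat2 2.1.0 and Partek 9.0.20.0202 were run, with no roles named. How counts were normalized, and whether strand was used, is not given in the sources used here, so a gene cannot be separated from one that overlaps it or lies antisense. Low values were whole multiples of a library's smallest common value (0.755 to 1.70, tolerance 0.02) in 80.6 to 83.2% of cases. This is too few to recover reads, so a count model was left out. A library's sum over that value is its estimated number of reads, lowest in knockout 2.

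Symbols matched 12771 of the Ensembl IDs and 123 had none. Exon lengths and spans came from GENCODE vM21 and promoters from RefSeq. Both describe GRCm38, so no position was set on the files' build.

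Values were tested as log2(value + 1), a scale that understates changes of low genes, for genes above 1 in at least 3 of 6 libraries (12872). Groups were compared, two-sided, by limma 3.58.1 in R 4.3.3 (lmFit, eBayes with a mean-variance trend), with Benjamini-Hochberg adjustment over all tested genes at 0.05. The fit was tested on simulated data. Errors are moderated SEs, and percentages of control are fitted fold changes. The alternatives were other pseudocounts, filters, scalings, no trend, a replicate block, each library left out and knockout 1 alone.

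Adjacent title numbers were taken as pairs from the data, not from a stated litter: deviations from group means correlated by 0.37, 0.23 and 0.36 within pairs and by −0.28 to −0.07 between the others.

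Members, gene lists and tests were chosen with earlier results of these data known. By rule every member and the 6 genes of each partner list with the smallest adjusted p are named. Shh, Smurf1, Xist and single marker genes were chosen after their values were seen. Values of 1 member and 1 marker list are not reported here.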

Additional observations from a re-analysis of the deposited data

How the results depend on the processing

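All 25 members that passed kept their direction under the 15 alternatives. Their groups did not overlap, so this was fixed in advance when a library was left out and with knockout 1 alone. Of 80 named genes under 15 alternatives, 1077 of the comparisons kept their side of the threshold, 97 lost their call and 26 gained one. There were 0 sign changes in which either fit passed. Sign changes without passing were counted as keeping their side. Of the 31 members that did not pass, 19 changed direction in some alternative without passing there. The count of higher members, 6, was 3 to 6 when 1 library was left out (11.7 to 18.2% of all genes) and 2 with knockout 1 alone (9.83%). That of lower members, 19, was 7 to 21 when 1 library was left out (8.71 to 16.8% of all genes), 12 without the mean-variance trend (14.5%) and 8 with knockout 1 alone (9.48%). Lower partner genes, 34, numbered 18 to 33 when 1 library was left out and 15 with knockout 1 alone, and the higher ones, 15, numbered 10 to 17 when 1 library was left out. The members' median log2 difference, −0.47, was −0.67 to −0.36 when 1 library was left out and 0.016 with knockout 1 alone, where it changed sign. The cause of these shifts was not tested, but leaving out libraries also lowers the number of samples. With the replicate block, 8 members were higher and 26 lower, and 20 and 47 partner genes. The block changed the calls named in the report and lost none of the 25. Members with few reads in knockout 2, such as Sfrp1, are limited by depth.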
